A study of Mus musculus with 18 samples.

Results

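OTII CD4 T cells were compared at 2 stages of their life, as naive cells of the periphery and as CD4 single-positive thymocytes, the thymic stage that precedes export. The comparison takes the libraries whose sample labels read peripheral OTII (3) and thymic OTII (3), which are 6 of the 18 libraries of the series. Gene expression was measured by RNA sequencing of total RNA, as single-end reads of 50 bases, and the series as a whole asks which signalling pathways Cbl-b controls in anergic T cells. All 6 libraries came from C57BL/6 mice that carry the transgenic receptor OT-II, which recognises a peptide of ovalbumin, and no other allele or treatment is named for them. Spleens and lymph nodes gave the peripheral cells, sorted as Va2-positive, CD25-negative CD4 T cells with low CD44 among the gates of naive cells. Thymic cells were sorted as Va2-positive, CD25-negative CD4 single-positive cells, with no gate on CD44 named. The labels name 3 OTII mice but do not say which mouse gave which library, nor whether 1 animal gave both tissues, so the p-values below measure the spread between libraries, which may be technical. The same contrast was also taken in W131AOTII cells, 3 peripheral and 3 thymic libraries from 12 mice (4 per group) that carry OT-II together with W131A, an amino acid change in ZAP-70, the kinase that couples the receptor to its targets. The Cbl-b-/- libraries entered only the filter on low counts, the scaling of the libraries and the common estimate of the spread.

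A CD4 single-positive thymocyte has passed positive selection, in which its receptor engages self peptide on MHC class II molecules, and it then matures in the thymic medulla. During this time it loses the recombinase and the retention receptors of younger thymocytes and acquires the sphingosine-1-phosphate receptor and the lymph node homing molecules with which it leaves for the blood. A naive T cell of the periphery is a resting cell that recirculates and lives on interleukin 7 and weak self recognition.

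Promoter sequences are shown for 5 genes that carry the main gene groups below. Ccnb2, Cdk1 and Top2a belong to the cell cycle group that was lower in peripheral cells, Nr4a1 to the receptor-signal group that was lower, and Ifit3 to the interferon-inducible genes that were higher. Each window runs from 250 bases before to 50 bases after the gene's first listed start in RefSeq on GRCm38.p6, written 5′ to 3′ on the gene's strand. Capitals mark TTTGAA, the core of the cell cycle homology region, in the first 3 promoters, GCGNGGGCG, a motif bound by EGR factors, in the Nr4a1 promoter, and a pair of GAAA separated by any 2 bases, the core of the interferon-stimulated response element, in the Ifit3 promoter, each searched on both strands.
Ccnb2 (chr9:70421505-70421804, minus strand): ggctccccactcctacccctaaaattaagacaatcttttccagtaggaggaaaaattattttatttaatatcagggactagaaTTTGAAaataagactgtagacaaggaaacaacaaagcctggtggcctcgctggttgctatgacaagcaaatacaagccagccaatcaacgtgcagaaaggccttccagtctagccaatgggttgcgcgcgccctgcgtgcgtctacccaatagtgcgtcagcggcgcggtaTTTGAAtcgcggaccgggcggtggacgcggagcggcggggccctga
Cdk1 (chr10:69352863-69353162, minus strand): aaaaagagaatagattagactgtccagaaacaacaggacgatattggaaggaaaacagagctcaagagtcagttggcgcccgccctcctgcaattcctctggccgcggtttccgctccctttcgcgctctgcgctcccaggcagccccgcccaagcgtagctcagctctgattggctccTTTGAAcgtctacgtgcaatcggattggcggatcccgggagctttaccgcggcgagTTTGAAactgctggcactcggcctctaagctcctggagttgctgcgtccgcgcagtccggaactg
Top2a (chr11:99024140-99024439, minus strand): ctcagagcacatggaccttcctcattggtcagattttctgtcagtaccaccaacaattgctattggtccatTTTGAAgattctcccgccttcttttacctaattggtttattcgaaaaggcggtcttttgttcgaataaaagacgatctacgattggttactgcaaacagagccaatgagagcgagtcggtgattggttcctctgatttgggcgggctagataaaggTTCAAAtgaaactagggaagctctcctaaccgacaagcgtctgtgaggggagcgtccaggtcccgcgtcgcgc
Nr4a1 (chr15:101266596-101266895, plus strand): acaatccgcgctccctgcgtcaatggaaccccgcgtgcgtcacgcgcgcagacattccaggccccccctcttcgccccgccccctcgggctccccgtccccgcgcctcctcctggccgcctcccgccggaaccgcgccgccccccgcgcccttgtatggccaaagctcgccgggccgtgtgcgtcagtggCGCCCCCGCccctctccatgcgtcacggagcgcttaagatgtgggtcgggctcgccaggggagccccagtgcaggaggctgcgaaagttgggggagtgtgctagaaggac
Ifit3 (chr19:34583279-34583578, plus strand): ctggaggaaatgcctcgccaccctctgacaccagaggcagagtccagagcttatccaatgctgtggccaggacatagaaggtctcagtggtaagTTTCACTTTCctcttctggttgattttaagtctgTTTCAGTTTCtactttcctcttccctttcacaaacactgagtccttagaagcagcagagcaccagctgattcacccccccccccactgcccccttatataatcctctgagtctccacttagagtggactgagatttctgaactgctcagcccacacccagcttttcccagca

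The core TTTGAA occurred in 10 of 24 cell cycle genes that were lower in the periphery and have a promoter in the table, in 1 of 7 cell cycle genes that were not called, and in 12.2% of the 10263 promoters of genes tested (18.1% of the 27025 promoters of the table). The motif GCGNGGGCG was held by 3 of 10 receptor-signal genes that were lower (Nr4a1, Nr4a2 and Cd200), by 6 of 24 cell cycle genes that were lower, and by 10.1% of the promoters of genes tested (5.55% of the table). The GAAA pair was held by 4 of 6 interferon-inducible genes that were higher and by 11 of 19 of those that were not called, so the letters did not separate the 2 sets; among promoters of genes tested the share was 3.16% (3.49% of the table). These matches are letters in a window and were not tested as binding sites.

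The libraries held 29851179, 30543980 and 28766735 counts in peripheral replicates 1 to 3 and 20001233, 31034603 and 22610022 counts in thymic replicates 1 to 3, and 15204 genes passed the filter on low counts. Levels are given as CPM, counts scaled to library size with a TMM factor, with 1 value per library in the order of the replicates. In a principal component analysis of the 6 libraries, component 1 held 88.9% of the variance and separated the peripheral from the thymic libraries. Component 2 held 4.84% and set thymic replicate 3 apart, at -20.6 against 10.9 and 7.28 in the other thymic libraries and 0.24 to 1.22 in the peripheral ones. That library carried transcripts of the heat shock and immediate early response. Hspa1b, a heat shock chaperone, was at 0.567, 0.957 and 1.0 CPM in peripheral libraries and 0.283, 0.0982 and 113 CPM in thymic libraries, and Jun, a subunit of AP-1, at 12.3, 15.4 and 14.1 CPM in peripheral and 1.93, 3.77 and 80.9 CPM in thymic libraries. Thymic replicate 3 alone was high for both. Neither gene was called with all libraries; without thymic replicate 3 Jun was higher in the periphery, with a log2 fold change of 2.25 (adjusted p = 0.0103). Cd4 and Cd3e were abundant in both groups. Cd4, on whose protein both sorts selected, was at 1394, 1549 and 1539 CPM in peripheral and 1188, 1284 and 1439 CPM in thymic libraries, and Cd3e at 1139.8, 1451 and 1308 CPM in peripheral and 1743, 1459.8 and 1635 CPM in thymic libraries; the groups overlapped for Cd4 and lay just apart for Cd3e, and neither gene was called. Cd8a, the CD8 alpha chain, was at most 15.5 CPM in any of the 6 libraries, and was lower in the periphery, at 5.37, 3.28 and 4.02 CPM against 13.4, 15.5 and 14 CPM in thymic libraries (-1.76 on the log2 scale). Cd8b1, the CD8 beta chain, was at 152, 186 and 163 CPM in peripheral and 190.1, 145 and 154 CPM in thymic libraries; its groups overlapped and it was not called (log2 fold change 0.03, adjusted p = 0.907).

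Peripheral OTII cells differed from thymic OTII cells at 2785 of 15204 genes, which is 18.3% of the genes tested, by the edgeR quasi-likelihood test at an adjusted p under 0.05. Of these, 1179 were higher (7.75%) and 1606 lower (10.6%) in the periphery. Losses were larger than gains: 1049 of the lower genes changed at least 2-fold and 247 at least 16-fold, against 471 and 85 of the higher genes, and the median size of the log2 fold change was 1.52 among lower and 0.81 among higher genes. The lower genes were also expressed at lower levels, with a median of 8.69 CPM over the 2 groups against 33.2 CPM for the higher genes. Without 1 library at a time the count was 1926 to 2382, the highest of these without thymic replicate 3, and without peripheral replicate 3 the number of higher genes was 767.

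**Figure D1:**
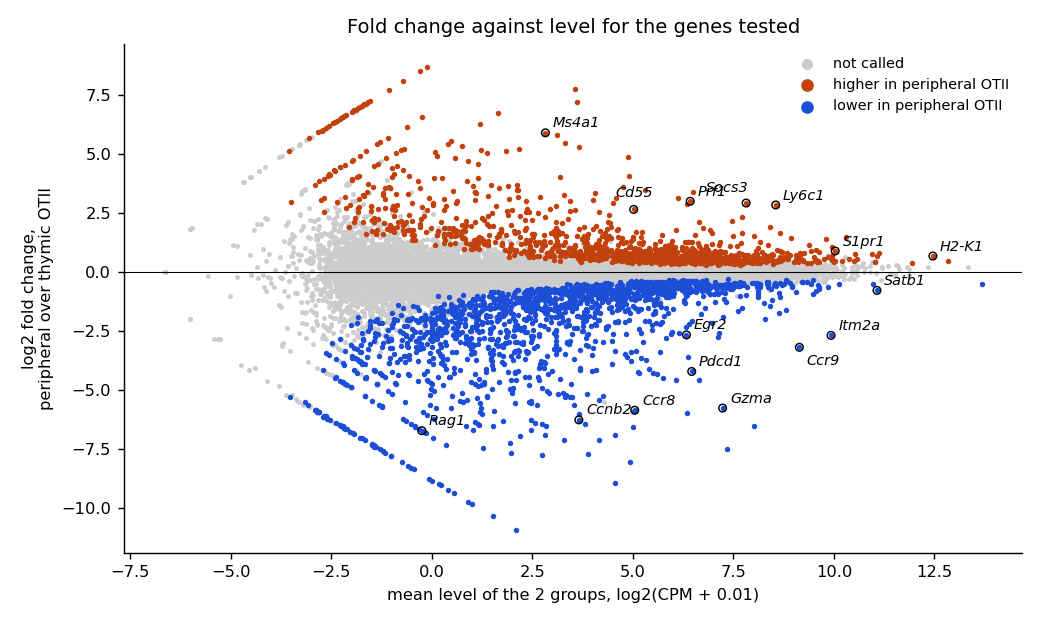
Each point is 1 of the genes tested, with its mean level in the 2 groups on the horizontal axis, as log2(CPM + 0.01), and the log2 fold change of peripheral over thymic OTII on the vertical axis; orange and blue points passed the adjusted p threshold of 0.05 (1179 higher, 1606 lower) and ringed points are named. The blue cloud reaches further from 0 than the orange one at intermediate levels, and the straight diagonal lines of points at low levels are genes with few or no counts in 1 group, whose fitted fold change depends on the prior count.

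Genes of the semi-mature stage were mostly lower in the periphery. Of 20 genes of semi-mature single-positive thymocytes that were tested, 15 were lower and 2 higher in the periphery, with a median log2 fold change of -1.58 against -0.01 over all genes tested. Ccr9, the receptor for the thymic chemokine CCL25, was at 122, 105 and 109 CPM in peripheral libraries and 1049.6, 1248 and 757 CPM in thymic libraries. The groups were far apart, and Ccr9 fell by 3.18 on the log2 scale (SE 0.25, adjusted p = 5.56e-08). Ccr4, a chemokine receptor that guides thymocytes into the medulla, was at 3.84, 5.27 and 4.55 CPM in peripheral and 80.8, 107 and 72 CPM in thymic libraries and fell by 4.25 (SE 0.22, adjusted p = 2.68e-10). Cd24a, the heat-stable antigen whose loss marks maturation, was at 2.77, 2.36 and 2.55 CPM in peripheral and 37.4, 28.1 and 21 CPM in thymic libraries, a fall of 3.49 (SE 0.46, adjusted p = 2.01e-05). No peripheral library reached the lowest thymic one for any of these 3 genes; groups that do not overlap were found for 39.5% of all genes tested. The transcription factors of the same stage fell by different amounts: Tox2 fell by 5.88, Sox4 by 2.77, Gata3 by 1.63, Tox by 1.52 and Satb1, a chromatin organiser of thymocytes, by 0.78. Satb1 was abundant in both groups, at 1410.2, 1686 and 1665 CPM in peripheral against 2485, 2732 and 2936 CPM in thymic libraries. Itm2a, a membrane protein induced at positive selection, was at 286, 263 and 242 CPM in peripheral and 2059, 1435 and 1566 CPM in thymic libraries (log2 fold change -2.68, SE 0.20). Cd69, which opposes S1PR1 at the cell surface, did not pass the test: it was at 114, 92.6 and 90.8 CPM in peripheral and 166, 98.7 and 132 CPM in thymic libraries, groups that overlapped (log2 fold change -0.41, adjusted p = 0.145), although without thymic replicate 2 the adjusted p was 0.0445. The 2 members called higher, Cd38 and Bcl6, lost that call in several runs without 1 library; none remained without peripheral replicate 2 and 1 of the list remained without any other single library.

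Traces of the earlier recombination stage were also lower. Among 19 genes of recombination and pre-TCR stages 11 were lower and 2 higher (1 higher without peripheral replicate 1). Rag1 and Rag2, the 2 subunits of the V(D)J recombinase, were close to absent from the periphery. Rag1 was at 0.0334, 0 and 0 CPM in peripheral and 1.84, 2.59 and 0.527 CPM in thymic libraries, 1 count in all peripheral libraries together against 130 in the thymic ones. Rag2 had 2 counts in the peripheral libraries and 42 in the thymic ones. Notch3, a Notch receptor of immature thymocytes, was at 0, 0.103 and 0 CPM in peripheral and 4.72, 13 and 5.71 CPM in thymic libraries and fell by 7.66 (SE 0.85, adjusted p = 2.86e-06). Dntt, the terminal transferase that acts with the recombinase, did not follow them. It was at 195, 202 and 192 CPM in peripheral libraries and 142, 197 and 116 CPM in thymic libraries, with a log2 fold change of 0.37 (SE 0.20, adjusted p = 0.235), and its lowest peripheral library lay below its highest thymic one. Dtx1, a Deltex gene of the Notch pathway, was higher in the periphery, at 421, 579 and 614 CPM against 203, 399 and 293 CPM in thymic libraries (log2 fold change 0.85, SE 0.21, adjusted p = 0.00827). Of 29 lineage transcription factors 15 were lower and 1, Bcl6, higher (0 higher without peripheral replicate 2 or 3 or thymic replicate 1). Those that fell included Id3 (-1.72), an inhibitor of E proteins, Id2 (-2.13), Ikzf2 (-2.27) and Myb (-1.50), all as log2 fold changes. Tcf7 and Lef1, the HMG-box factors that T cells keep from their earliest stages, were not called: Tcf7 was at 3190.1, 3847 and 3779 CPM in peripheral and 3986, 3777 and 3915 CPM in thymic libraries and Lef1 at 674, 772 and 745 CPM in peripheral and 767, 681 and 731 CPM in thymic libraries.

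**Figure D2:**
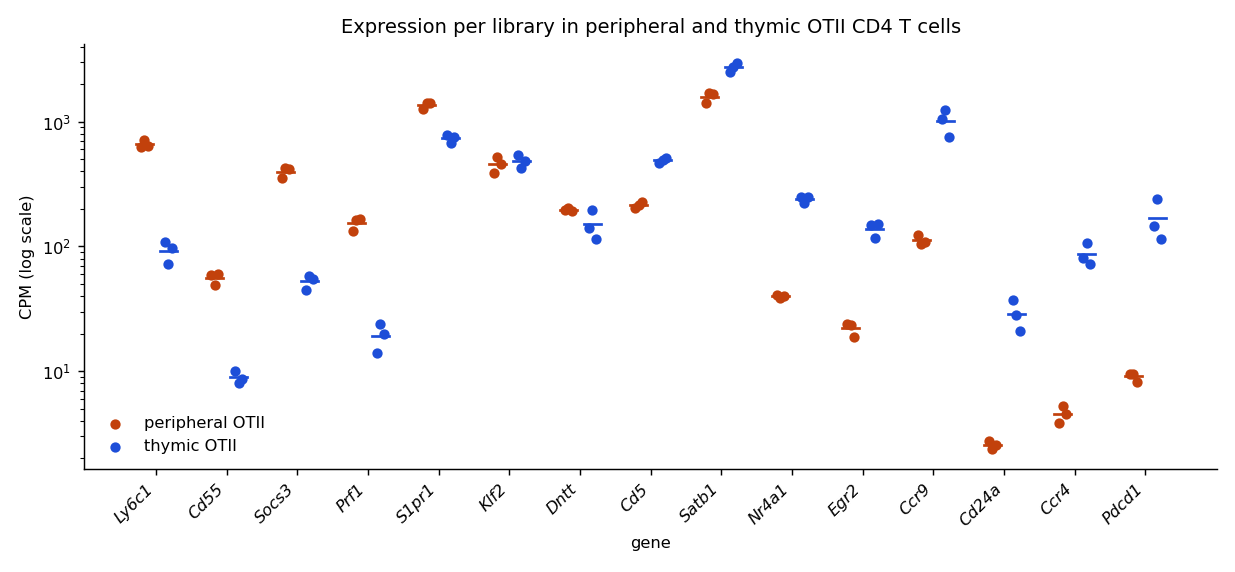
Level of named genes in each library, in CPM on a log axis, with peripheral OTII (orange) left of thymic OTII (blue) for each gene; points are single libraries and short bars the mean of 3. The groups do not overlap for Ly6c1, Cd55, Socs3, Prf1, S1pr1, Cd5, Satb1, Nr4a1, Egr2, Ccr9, Cd24a, Ccr4 and Pdcd1, and they overlap for Klf2 and Dntt.

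Many transcripts that follow T cell receptor engagement were lower in the periphery. Of 28 genes of signal strength and strong selection 14 were lower and 4 higher, with a median log2 fold change of -0.80, and each single-library omission left 14 or 15 of them lower. Nr4a1, the orphan nuclear receptor Nur77, was at 40.5, 38.9 and 40.2 CPM in peripheral and 250.2, 225 and 248 CPM in thymic libraries, a fall of 2.60 on the log2 scale (SE 0.16, adjusted p = 2.51e-09). Egr2, a zinc finger factor induced by receptor signals, was at 24, 23.4 and 18.6 CPM in peripheral and 149.5, 117 and 150.4 CPM in thymic libraries and fell by 2.66 (SE 0.16, adjusted p = 1.63e-09). The libraries of each group lay close together for both genes, and thymic replicate 3 did not stand apart. Pdcd1, the inhibitory receptor PD-1, was at 9.55, 9.51 and 8.18 CPM in peripheral and 146, 242 and 115 CPM in thymic libraries and fell by 4.21 (SE 0.35). Irf4, a factor graded by signal strength, was at 8.84, 5.88 and 11 CPM in peripheral and 60.0, 64.4 and 77.7 CPM in thymic libraries and fell by 2.98 (SE 0.23). Nab2, the EGR co-repressor, fell by 2.08 and Egr1 by 1.99, while Egr3 fell by 1.38. Cd83 (log2 fold change 1.66), Birc3 (0.52) and Orai2 (0.53), a subunit of the store-operated calcium channel, were higher. In the list of immediate early and handling genes 4 of 22 members were lower and 0 higher (2 lower without any 1 peripheral library, and 1 higher without thymic replicate 3). The called share of that list was 18.2%, near the 18.3% of all genes tested. Fos was at 4.54, 3.73 and 3.59 CPM in peripheral and 12, 8.32 and 47.1 CPM in thymic libraries and fell by 2.50 (SE 0.50). Without thymic replicate 3, the highest library, the log2 fold change of Fos was -1.37 (adjusted p = 0.0155), and that of Hspa1a, called with all libraries at -6.94, was -0.46 (adjusted p = 0.899).

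The restraints on receptor signalling divided. Of 31 such genes 12 were lower and 5 higher, but 1 or 2 higher calls remained when any single library was left out. Cd5, a receptor that tracks self-reactivity, was at 202, 216 and 228 CPM in peripheral and 467, 491 and 511 CPM in thymic libraries and fell by 1.18 (SE 0.16, adjusted p = 3.52e-05). Its relative Cd6 was at 617, 585 and 575 CPM in peripheral and 837, 1042 and 1076 CPM in thymic libraries and fell by 0.73 (SE 0.13). Of the phosphatases that switch off MAP kinases, Dusp6 fell by 1.78, Dusp5 by 1.20, Dusp2 by 0.98 and Dusp4 by 2.15, the last at -1.43 and without a call when thymic replicate 2 was left out (adjusted p = 0.0628). Spred1, an inhibitor of Ras activation, fell by 1.71. Dgka, the kinase that consumes diacylglycerol, went the other way, at 2604, 2358 and 2427 CPM in peripheral and 1268, 1458 and 1679 CPM in thymic libraries (log2 fold change 0.75, SE 0.12, adjusted p = 0.000216). Cblb, the ubiquitin ligase at the centre of the series, was at 124, 122 and 142 CPM in peripheral and 78.6, 97.2 and 96.7 CPM in thymic libraries. The groups did not overlap and the log2 fold change was 0.51 (SE 0.17, adjusted p = 0.0447), but the call was lost without any 1 of the 6 libraries, where the adjusted p was 0.0669 to 0.189.

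Most genes of the core receptor machinery were not called. Among 29 genes of proximal signalling 3 were higher, 5 lower and 21 not called. The called share was 27.6%, against 18.3% of all genes tested, and the median log2 fold change was -0.01. Without peripheral replicate 1, 1 was higher, and without peripheral replicate 3, 3 were lower. The lower count was 10 when library size alone replaced the TMM factors, and offsets for GC content and gene length gave 5 higher and 8 lower. Zap70, the kinase altered in the W131A mice, was at 272, 350.2 and 321 CPM in peripheral and 302, 420.4 and 385 CPM in thymic libraries, and Lck, the kinase that precedes it, at 3868, 3925 and 3829.6 CPM in peripheral and 3216, 3855 and 3617 CPM in thymic libraries. Neither was called, and the groups overlapped for both. Cd247, the CD3 zeta chain, was lower, at 597, 632 and 624 CPM in peripheral and 924, 1007 and 938 CPM in thymic libraries (log2 fold change -0.63, SE 0.13).

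Genes of naive identity were in part higher in the periphery. Among 34 mature naive T cell genes 15 were higher and 2 lower (1 lower without peripheral replicate 3 or thymic replicate 2), with a median log2 fold change of 0.39. S1pr1, the sphingosine-1-phosphate receptor that draws cells into blood and lymph, was at 1267, 1400.0 and 1417 CPM in peripheral and 784, 669.6 and 749 CPM in thymic libraries (log2 fold change 0.89, SE 0.12, adjusted p = 2.3e-05). Its message was abundant in the thymic libraries as well. Klf2, the factor that drives S1pr1, was not called and its groups overlapped, at 386, 520.2 and 461 CPM in peripheral and 539, 427 and 481 CPM in thymic libraries (log2 fold change -0.08, SE 0.16, adjusted p = 0.786), and Ccr7, the lymph node homing receptor, was at 1940.1, 2183 and 2077 CPM in peripheral and 1738, 1668 and 1771 CPM in thymic libraries without a call (log2 fold change 0.26, adjusted p = 0.165), although its groups did not overlap. Foxo1, which acts upstream of Klf2, was called higher (log2 fold change 0.72, SE 0.14), at 521, 724 and 755 CPM in peripheral and 413, 387 and 413 CPM in thymic libraries.

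The genes that rose included surface proteins of naive cells. Ly6c1, a glycosylphosphatidylinositol-anchored Ly6 protein, was at 628, 713 and 637 CPM in peripheral and 108, 72.1 and 97.1 CPM in thymic libraries (log2 fold change 2.84, SE 0.15, adjusted p = 2.68e-10); it has near-identical neighbours between which reads can be split. Cd55, the complement decay-accelerating factor, was at 58.8, 49.2 and 60.0 CPM in peripheral and 10.1, 8.02 and 8.70 CPM in thymic libraries (2.65, SE 0.20). Dapl1 was at 24.8, 33.1 and 27.8 CPM in peripheral and 3.59, 3.41 and 3.47 CPM in thymic libraries (3.03, SE 0.31), and Art2b, an ectoenzyme that ADP-ribosylates surface proteins, at 176, 162 and 165 CPM in peripheral and 47.7, 44.2 and 47.6 CPM in thymic libraries (1.85, SE 0.19). For all 4 genes every peripheral library was above every thymic one. Cd28, the main costimulatory receptor, moved against the list, at 383, 389.8 and 374 CPM in peripheral and 804, 552 and 679 CPM in thymic libraries (-0.83, SE 0.17). Slfn1 and Ms4a4b, commonly listed with naive cells, were not called, and their groups overlapped.

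Trafficking genes were called in both directions. Of 34 egress and trafficking genes 9 were higher, 9 lower and 16 not called, with a median log2 fold change of -0.01. Ccr8, a chemokine receptor, was at 1.27, 0.889 and 1.22 CPM in peripheral and 63.2, 76 and 55.7 CPM in thymic libraries and fell by 5.85 (SE 0.31, adjusted p = 2.68e-10). Plxnd1, a semaphorin receptor that controls thymocyte migration, fell by 2.11. Cxcr5, the receptor that guides cells to B cell follicles, was at 10.8, 11.4 and 12.9 CPM in peripheral and 1.89, 3.41 and 1.63 CPM in thymic libraries (2.32, SE 0.33). Itga6 (1.28), Dock2 (1.05), the exchange factor behind chemokine-driven migration, and Itgb7 (0.70), the beta chain of the gut homing integrin, were higher, as log2 fold changes. Among 35 adhesion and cytoskeleton genes 10 were lower and 6 higher. Anxa2 (-3.58), S100a4 (-4.29) and S100a6 (-2.95) were lower, and Tagln2, an actin-binding protein, was higher, at 357, 448 and 419 CPM in peripheral and 179, 176 and 153 CPM in thymic libraries (1.27).

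Cytokine receptors shifted in composition. Of 30 tested, 10 were higher and 5 lower, with 6 higher when peripheral replicate 2 was left out. Il4ra, the interleukin 4 receptor, was at 852, 892 and 959.8 CPM in peripheral and 377, 544 and 542 CPM in thymic libraries (0.89, SE 0.14), and Il21r at 1010.0, 994 and 1046 CPM in peripheral and 526, 602 and 568 CPM in thymic libraries (0.85, SE 0.12). Il18r1 rose by 1.94 and Il15ra by 0.93, while Il12rb2, a chain of the interleukin 12 receptor, fell by 4.79 and Il12rb1 by 1.78. Il7r, the survival receptor of naive cells, was at 217, 211 and 175 CPM in peripheral and 155, 102 and 137 CPM in thymic libraries. Its groups did not overlap, but its call (log2 fold change 0.61, SE 0.21, adjusted p = 0.0447) was lost without any 1 library except thymic replicate 1, where the adjusted p was 0.0411. Socs3, a feedback inhibitor of gp130 cytokine signalling, showed one of the smallest adjusted p-values of the comparison. It was at 355, 425 and 416 CPM in peripheral and 45, 57.9 and 55.1 CPM in thymic libraries (log2 fold change 2.92, SE 0.16, adjusted p = 2.68e-10). Socs1 was lower, at 45.1, 46.5 and 46.4 CPM in peripheral and 94.7, 69.8 and 82.5 CPM in thymic libraries (-0.84, SE 0.17). The 2 family members moved in opposite directions. Of 14 inhibitors of cytokine signalling 2 were higher and 1 lower (1 higher without peripheral replicate 2 or 3 or thymic replicate 2, and 2 lower without thymic replicate 3). The called share of these inhibitors was 21.4%, near the 18.3% of all genes tested.

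The called genes of the cell cycle were all lower in the periphery. Of 38 tested, 29 were lower and 0 higher in the periphery, with a median log2 fold change of -2.07, and 26 to 30 were lower when 1 library was left out. Ccnb2, a mitotic cyclin, was at 0.167, 0.376 and 0.430 CPM in peripheral and 27.3, 34.4 and 13 CPM in thymic libraries and fell by 6.25 (SE 0.61, adjusted p = 5.97e-07). Top2a, the topoisomerase of dividing cells, was at 4.94, 4.21 and 4.99 CPM in peripheral and 76.2, 118 and 46.8 CPM in thymic libraries and fell by 4.09 (SE 0.38). Mki67, which encodes the proliferation antigen Ki-67, was at 0.601, 2.22 and 1.29 CPM in peripheral and 21.4, 37.5 and 14.3 CPM in thymic libraries and fell by 4.15 (SE 0.65). Thymic replicate 3 was the lowest of the thymic libraries for these genes, yet above every peripheral one. The helicase subunits that license replication origins behaved otherwise: Mcm2 was at 209, 240.1 and 234 CPM in peripheral and 172, 301 and 219 CPM in thymic libraries (log2 fold change -0.02, adjusted p = 0.967), and Mcm3, Mcm5, Mcm6 and Mcm7 were not called either, although without thymic replicate 1 Mcm7 passed (log2 fold change -0.61, adjusted p = 0.0495). In bulk libraries fewer dividing cells and less of these transcripts per cell cannot be told apart. Chromatin regulators had 11 of 35 lower and 0 higher (7 lower without peripheral replicate 1), among them Ezh2, the methyltransferase of the Polycomb complex (-1.14), Dnmt3a (-0.91) and Cxxc5 (-2.62).

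Transcripts of other cell types moved with the comparison and were unequal between the groups. Of 18 B cell markers 16 were higher and 1, Blk, lower in the periphery, and their summed level was 2514, 2884 and 2702 CPM in peripheral and 817, 1047 and 742 CPM in thymic libraries. Ms4a1, which encodes CD20, was at 16.4, 11.2 and 14.1 CPM in peripheral and 0.330, 0.164 and 0.220 CPM in thymic libraries. Pax5, the factor that defines B cells, had 103 counts in peripheral libraries and none in thymic ones, at least 29.6-fold higher against a floor of 3 counts over the group. The invariant chain Cd74 and Ighm, which make up most of the sum, were also detected in the thymic libraries: Ighm was at 1684, 1989 and 1890.0 CPM in peripheral and 605, 762 and 597 CPM in thymic libraries. Myeloid markers were called higher for 4 of 15, with summed levels of 209, 228 and 202 CPM in peripheral and 209, 196 and 199 CPM in thymic libraries. The part of these cells in the higher genes was not tested.

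In the opposite direction, innate-like and gamma delta T cell transcripts were higher in the thymus. Of 14 NK and innate-like markers 9 were lower and 1 higher in the periphery, with summed levels of 157, 172 and 152 CPM in peripheral and 1076, 1474 and 597 CPM in thymic libraries. Gzma, a granzyme, was at 5.21, 5.54 and 5.67 CPM in peripheral and 342, 403 and 141 CPM in thymic libraries and fell by 5.75 (SE 0.49, adjusted p = 2.41e-07). Tcrg-C1 and Tcrg-C2, near-identical constant segments of the gamma receptor, fell by 4.47 and 4.57, and Trdc, the delta constant segment inside the alpha locus, by 1.92. Zbtb16, which encodes the PLZF factor of innate-like T cells, had no count in the peripheral libraries and 55 in the thymic ones, at least 20.8-fold lower against a floor of 3 counts over the group. The natural killer receptor gene Ncr1 was at 0, 0 and 0.0359 CPM in peripheral and 0.0944, 0.557 and 0.0879 CPM in thymic libraries. At these low levels Ncr1 was not called (log2 fold change -4.04, adjusted p = 0.161). Maf, a factor shared by innate-like and effector cells, moved with this set, at 0.634, 0.684 and 0.251 CPM in peripheral and 23, 25.2 and 7.56 CPM in thymic libraries. Thymic replicate 2 was the highest and thymic replicate 3 the lowest library for Gzma, Trdc and Maf, as they were for Ccnb2, Top2a and Mki67. No CD44 gate is named for the thymic sort, and the share of these cells in the lower genes was not tested.

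**Figure D3:**
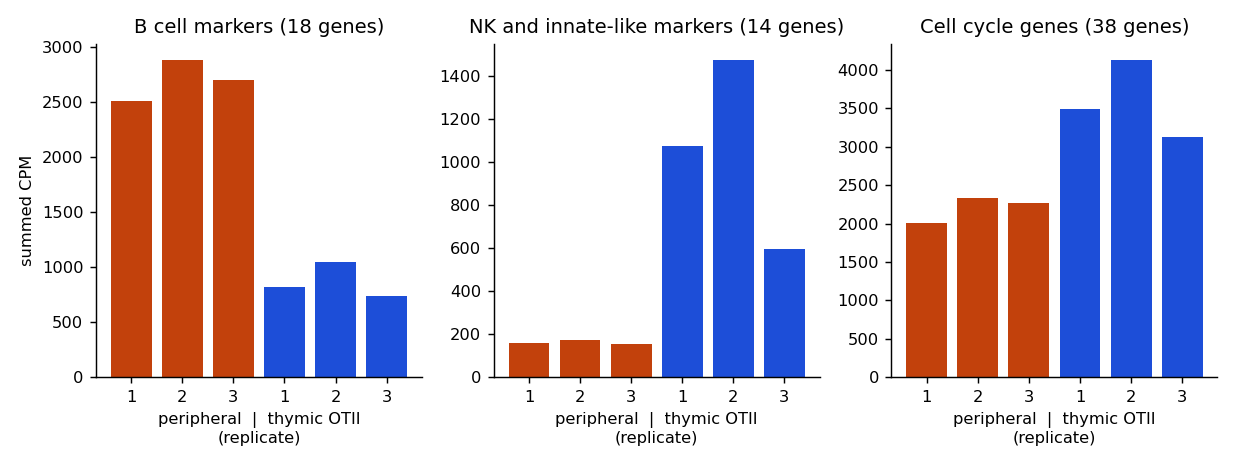
Summed level (CPM, linear axes from 0) in each library of the 18 B cell markers, the 14 NK and innate-like markers and the 38 cell cycle genes tested, with the 3 peripheral OTII libraries (orange) left of the 3 thymic OTII libraries (blue). B cell markers are highest in the periphery, while the other 2 sums are highest in thymic replicate 2 and lowest, among thymic libraries, in replicate 3.

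Effector and regulatory T cell genes overlap in part with those markers. Of 26 effector and memory T helper genes 16 were lower and 2 higher, the 2 being Prf1 and Prdm1. Prf1, which encodes perforin, was at 132, 161 and 165 CPM in peripheral and 13.9, 23.7 and 19.7 CPM in thymic libraries (2.99, SE 0.21, adjusted p = 1.79e-08), opposite in direction to Gzma. Its groups were far apart. Ifng and Il4, cytokine genes of the list, were called lower from 2 and 3 counts in all peripheral libraries, and averaged 0.393 and 0.395 CPM in thymic libraries. The call of Ifng was lost without peripheral replicate 1 or 3 or thymic replicate 3. That of Il4 was lost without peripheral replicate 1 or 2 or thymic replicate 1. Among 18 regulatory T cell genes 9 were lower and 3 higher. Foxp3, the defining factor of that lineage, was at 28.5, 31.1 and 34.3 CPM in peripheral and 10.4, 10.3 and 12 CPM in thymic libraries (1.52, SE 0.20, adjusted p = 2.64e-05), although both sorts excluded CD25-positive cells. Lrrc32, which presents latent TGF-beta on regulatory cells, was higher as well (1.63), as was Il2ra (0.79), which encodes CD25 itself. Ikzf2 (-2.27), Izumo1r, the folate receptor 4 (-1.53), Gpr83 (-1.56) and Tnfrsf4, the receptor OX40 (-1.55), were lower. Of 31 costimulatory and inhibitory receptors and ligands 12 were lower and 5 higher (3 higher without peripheral replicate 1). Icos fell by 2.17 and Tnfsf11, the ligand RANKL with which thymocytes signal to medullary epithelium, by 4.12. Tnfsf8 (1.30) and Vsir, the inhibitory receptor VISTA of resting T cells (0.82), were higher.

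The interferon-inducible, MHC class I and NF-kB lists held more higher than lower calls, but most members were not called. The median log2 fold changes were 0.06, 0.10 and 0.15 in that order. The summed interferon list overlapped, at 6187, 5210 and 5066 CPM in peripheral and 5285, 4923 and 5587 CPM in thymic libraries. The sums of the MHC class I and NF-kB lists were higher in every peripheral library. Of 26 MHC class I and antigen processing genes 6 were higher and 0 lower, of 36 type I interferon genes 7 were higher and 1 lower (0 lower without peripheral replicate 2 or 3 or thymic replicate 1), and of 25 NF-kB pathway genes 5 were higher and 0 lower, against 7.75% higher among all genes. Offsets for GC content and gene length gave 10 higher and 1 lower in the NF-kB list, and with them 1972 genes were higher in all in place of 1179. H2-K1, a classical class I heavy chain, was at 6524, 7296 and 7016 CPM in peripheral and 4410.5, 4007 and 4604 CPM in thymic libraries (0.68, SE 0.12). The nonclassical H2-Q6 was at 283, 286 and 296 CPM in peripheral and 53.8, 85 and 51.9 CPM in thymic libraries (2.18, SE 0.18), and its neighbour H2-Q7 at 1042, 945 and 976 CPM in peripheral and 462, 539.8 and 531 CPM in thymic libraries (0.95, SE 0.17). H2-Q genes are close copies, so reads may be shared among them. Ifit1bl1 (1.54), Ifit3 (1.02) and Ifit2 (0.81), members of the IFIT family that binds viral RNA, were higher, but Irf7 was not called, at a log2 fold change of -0.13. In the NF-kB list Bcl3 (1.0), an atypical inhibitor protein, Traf1 (0.80) and Ikbkb (0.67), the catalytic kinase of the pathway, were higher, while the subunits Nfkb1 (-0.12) and Rela (0.39) were not called.

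Metabolic and remaining lists varied in their share of calls. Among all genes tested 7.75% were higher and 10.6% lower, 18.3% in all. Glycolysis genes (22.7%) and calcium and ion channel genes (21.9%) were called at shares near that one. Quiescence genes (46.4%) and glycan genes (39.4%) were called at larger shares. Of 23 cholesterol synthesis genes 6 were higher and 1 lower, with Sqle, an enzyme of the pathway, among the higher (0.81) and Dhcr7 lower (-0.65). Of 22 glycolysis genes 3 were higher and 2 lower (1 higher without peripheral replicate 2, and 1 lower without peripheral replicate 1 or 3, and 0 without thymic replicate 2), and the one with the smallest adjusted p was Pdk1, which holds pyruvate back from mitochondria, at 1382, 1224 and 1270.2 CPM in peripheral and 443, 472 and 543 CPM in thymic libraries (1.41, SE 0.15, adjusted p = 2.31e-06). Of 28 quiescence genes 7 were higher and 6 lower (2 lower without peripheral replicate 1, and 3 without peripheral replicate 2 or thymic replicate 1), with Klf6 (1.06) and Peli1 (0.65) among the higher and Cdkn2c (-2.03) among the lower. Survival genes included Bcl2l1, which encodes BCL-XL (-0.98), lower, and Fasl (1.18), higher, in a list of 20 with 2 higher and 4 lower (2 lower without peripheral replicate 1). Glycan genes had 4 of 33 higher and 9 lower, with St8sia6 (1.21), a sialyltransferase, higher and St3gal5 (-3.40) lower. GIMAP GTPases had 3 of 8 higher and 0 lower, among them Gimap3 (0.77), and IRG and GBP GTPases 4 of 18 higher and 0 lower (2 higher without peripheral replicate 2 or 3 or thymic replicate 2 or 3). In the other lists the counts were 4 higher and 3 lower of 18 purinergic genes (0 lower without peripheral replicate 1 or 3, and 1 without peripheral or thymic replicate 2), 5 and 2 of 32 calcium and ion channel genes (0 lower without peripheral replicate 2 or 3 or thymic replicate 2, 1 without peripheral replicate 1 or thymic replicate 3, and 4 without thymic replicate 1), 3 and 3 of 22 Notch and Wnt genes and 3 and 6 of 24 glucocorticoid and nuclear receptor genes. Controls gave 2 higher and 3 lower of 10 CD8 markers, 0 and 4 of 8 thymic stroma markers, and 0 and 0 of 7 erythroid and platelet, 4 sex-linked and 8 mitochondrially encoded genes (2 of the last higher without thymic replicate 1). Epcam, an epithelial adhesion molecule, was at 5.04, 3.73 and 3.91 CPM in peripheral and 11.3, 9.33 and 8.79 CPM in thymic libraries. Pdgfrb, a fibroblast receptor, was at 0.0668, 0.0684 and 0.287 CPM in peripheral and 10.9, 34.9 and 12.3 CPM in thymic libraries. Col1a1 was at 0.0668, 0.137 and 0 CPM in peripheral and 0.142, 1.02 and 0.439 CPM in thymic libraries and was not called (adjusted p = 0.0728). Of the 8 stroma markers, 3 had positive log2 fold changes. The summed stroma list overlapped, at 443, 449 and 464 CPM in peripheral and 355, 465 and 449 CPM in thymic libraries. Among T cell receptor segments, 2 of 71 alpha variable segments and 10 of 24 beta variable segments were lower and none higher.

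**Figure D4:**
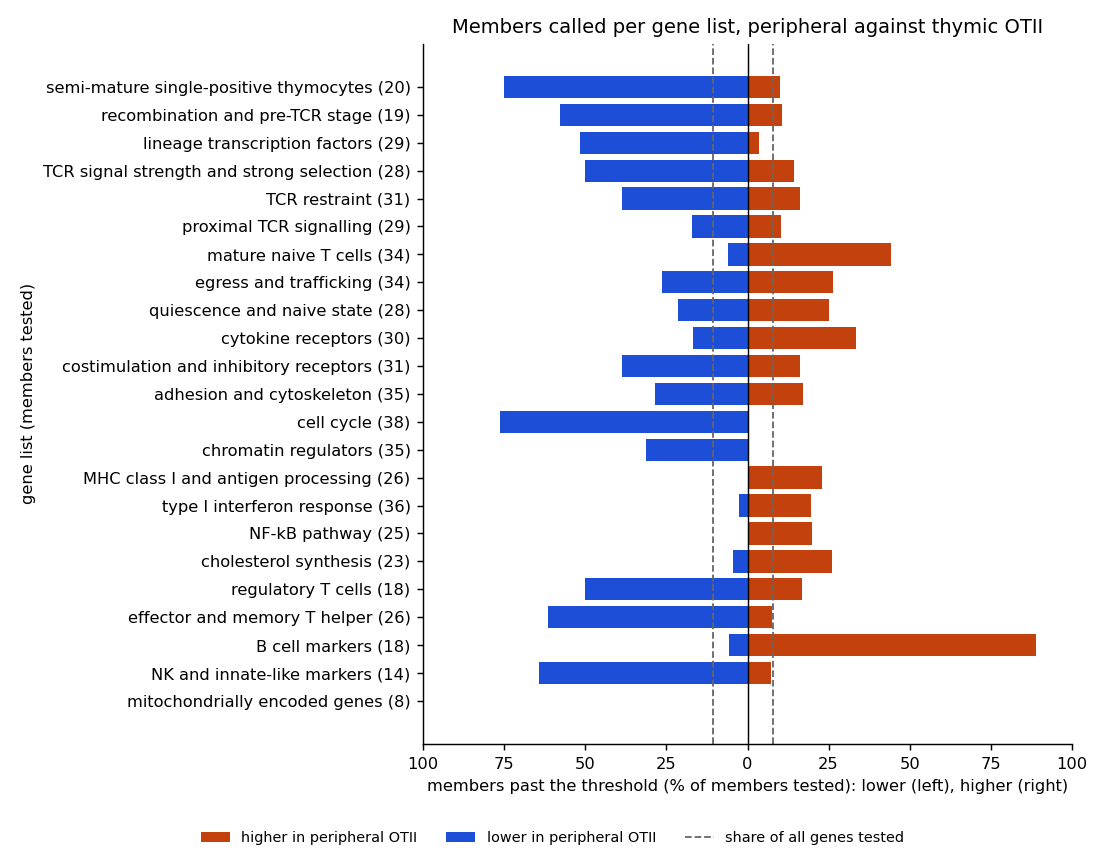
Share of the tested members of each gene list (number tested in brackets) that were higher (orange, to the right) or lower (blue, to the left) in peripheral OTII cells at an adjusted p under 0.05; dashed lines mark the share of all genes tested, 7.75% higher and 10.6% lower. Cell cycle and semi-mature lists reach furthest to the left, and B cell markers and mature naive genes furthest to the right.

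Several of the best supported genes belonged to no list above. Sntb1, a syntrophin, an adaptor of the dystrophin complex, was at 44.1, 35 and 49 CPM in peripheral and 4.10, 5.27 and 5.01 CPM in thymic libraries (3.15, SE 0.19, adjusted p = 1.63e-09). Adgre5, which encodes the adhesion receptor CD97 and binds CD55, was at 555, 632 and 642 CPM in peripheral and 171, 202 and 215 CPM in thymic libraries (1.64, SE 0.12), and Pdlim4 at 107, 166 and 154 CPM in peripheral and 15.4, 21.7 and 20.5 CPM in thymic libraries (2.88, SE 0.21). Vipr1, the receptor of the neuropeptide VIP, was at 177, 181 and 207 CPM in peripheral and 44.9, 60.4 and 61.2 CPM in thymic libraries (1.76, SE 0.14). Phf11a (3.18), Dtx4 (2.99), Tent5a (2.92) and Rflnb (1.64) were higher as well. On the lower side, Ndrg1, known as a T cell anergy factor, was at 13.9, 16 and 12.6 CPM in peripheral and 94.6, 109 and 91.8 CPM in thymic libraries (-2.79, SE 0.15, adjusted p = 2.68e-10). Ptgir, the prostacyclin receptor, was at 5.37, 5.92 and 5.49 CPM in peripheral and 59.2, 80.4 and 66.1 CPM in thymic libraries (-3.61), and Il17rb, a subunit of the interleukin 25 receptor, at 5.11, 4.79 and 4.27 CPM in peripheral and 40.3, 68.3 and 45.7 CPM in thymic libraries (-3.45). Slc27a1, a fatty acid transporter, fell by 2.58. None of these genes had overlapping groups, but that was a condition of naming them and is not a result about them.

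The same contrast in W131AOTII cells shares no library with the OTII one and called 2923 genes (19.2% of those tested), 1227 higher (8.07%) and 1696 lower (11.2%). Of the 2785 genes called in OTII cells 2642 (94.9%) had the same sign in W131AOTII cells, and 1700 were called the same way, which is 61.0% of the OTII list and 58.2% of the W131AOTII list; 9 were called in the opposite direction. The difference between the 2 effects was itself tested, and 58 genes passed (0.381% of those tested), 45 (0.296%) with a lower value in OTII than in W131AOTII and 13 (0.0855%) with a higher one. Single libraries set much of this count: 33 genes passed without peripheral OTII replicate 2, 23 without peripheral OTII replicate 3, 37 without thymic OTII replicate 1, 32 without peripheral W131AOTII replicate 1 or 2, and 35 without thymic W131AOTII replicate 3. Without thymic W131AOTII replicate 1 there were 90 negative and 41 positive differences. The negative differences held 5 of the 28 genes of signal strength and strong selection (Tnfrsf4, Irf4, Cd5, Nr4a1 and Egr2) and 5 of the 18 regulatory T cell genes (Gpr83, Tnfrsf4, Ctla4, Ikzf4 and Nrp1), with Tnfrsf4 in both lists. Of the 28, 14 were lower and 4 higher in OTII cells, and 8 lower and 7 higher in W131AOTII cells. Of the 18, 9 were lower and 3 higher in OTII cells (median log2 fold change -0.78), and 1 was lower and 8 higher in W131AOTII cells (median 0.45). The summed level of the regulatory T cell genes was 422, 442 and 425 CPM in peripheral and 746, 841 and 701 CPM in thymic OTII libraries, and 1342, 1434 and 1189 CPM in peripheral and 1236, 749.6 and 909 CPM in thymic W131AOTII libraries. The peripheral sums were below every thymic one in OTII cells, while the W131AOTII groups overlapped. Foxp3 was at 138, 161 and 148 CPM in peripheral and 35, 22.5 and 18.5 CPM in thymic W131AOTII libraries (log2 fold change 2.55), a difference from OTII cells of -1.03 that did not pass (adjusted p = 0.153) but did without thymic W131AOTII replicate 1 (adjusted p = 0.0118). The part of regulatory T cells in the differences between the genotypes was not tested. Gpr83 had log2 fold changes of -1.56 in OTII and 0.77 in W131AOTII cells, a difference of -2.33 (SE 0.18, adjusted p = 1.08e-06). Cd5 had -1.18 in OTII and 0.49 in W131AOTII cells (difference -1.67, adjusted p = 0.000962), and Tnfrsf4 had -1.55 in OTII and 0.91 in W131AOTII cells (difference -2.46, adjusted p = 0.000865). In these 3 genes the sign differed between the genotypes. Nr4a1 fell in both, by 2.60 in OTII and by 0.99 in W131AOTII cells (difference -1.61, adjusted p = 0.000865). Irf4 had log2 fold changes of -2.98 in OTII and -0.61 in W131AOTII cells (difference -2.36, adjusted p = 0.000865). Klf2, which was not called in OTII cells, had a log2 fold change of 1.26 in W131AOTII cells (difference -1.34, adjusted p = 0.00685). Among positive differences, Slc16a5, a monocarboxylate transporter, had 1.89 in OTII and 0.26 in W131AOTII cells (difference 1.63, adjusted p = 0.00282), and Ppp3cc, a catalytic subunit of calcineurin, 0.93 in OTII and -0.39 in W131AOTII cells (difference 1.31, adjusted p = 0.00362). Among the genes tested in the semi-mature and cell cycle lists no difference passed this test, which does not show that the effects were alike.

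**Figure D5:**
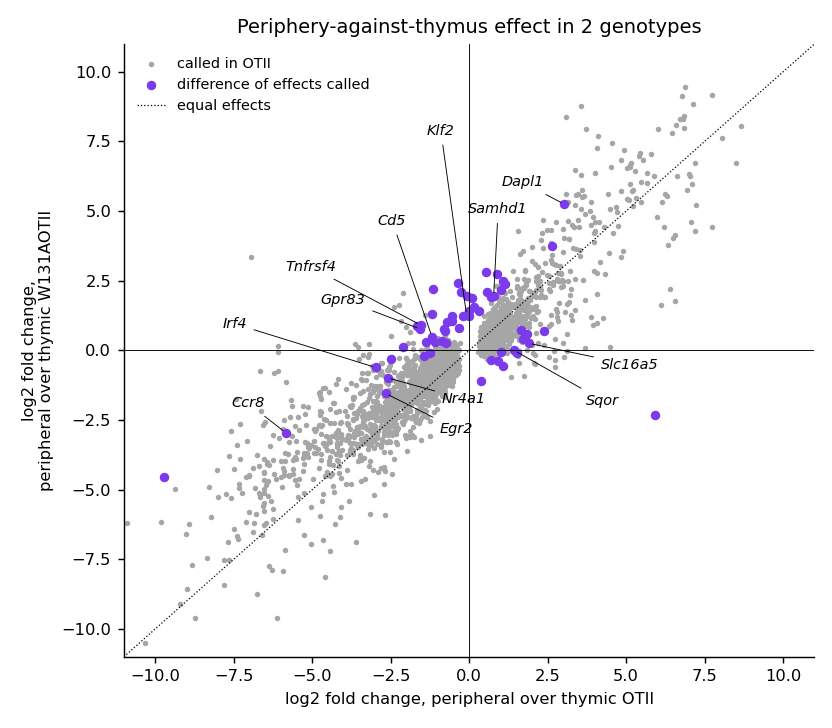
Log2 fold change of peripheral over thymic cells in OTII (horizontal axis) and in W131AOTII (vertical axis); grey points are genes called in OTII, purple points are the 58 genes whose difference of effects passed an adjusted p of 0.05, and the dotted line marks equal effects. Most grey points share their sign in both genotypes, and purple points lie mainly above the line.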

How the data were processed

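Total RNA of sorted CD4 T cells was sequenced, and the authors deposited a table of whole-number read counts per gene for all 18 libraries; the submitters' processing notes name STAR 2.7.2, DESeq2 and GRCm38, without saying how they were combined, while the counting tool and strand setting are not given in these sources. Library totals ran from 19708218 to 36218772 counts. Of 55536 genes, 25739 had no count in any library and 15204 passed edgeR's filterByExpr on the groups.

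The counts were scaled with TMM factors and fitted with edgeR 4.0.16 in R 4.3.3 (robust quasi-likelihood F test, 1 mean for each of the 6 groups, 12 residual degrees of freedom), and p-values were adjusted by Benjamini-Hochberg over all genes tested, with 0.05 as the threshold. The fits were tested on simulated data. Log2 fold changes are peripheral over thymic, SE is the standard error of that value, and CPM are counts scaled to library size with those factors. The difference between OTII and W131AOTII effects was tested as a contrast of the same fit. Alternatives were library size alone, RLE factors, DESeq2 1.42.0, limma 3.58.1 with voom, no filter, a mean CPM of at least 1, offsets for GC content and gene length, the compared libraries alone with and without the replicate number as a block, and each library left out. No 2 libraries of a group were alike within sampling noise. Where reads match close copies or overlapping genes, counts can be split or shared.

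Members and gene lists were chosen with earlier results of these data known. Genes were named by a rule that takes a set of key genes and the leading members of each list. It also takes genes with the smallest adjusted p and a change of at least 2-fold in each direction, if their groups do not overlap. Cd200, Cd6, Cdk1, Ctla4, Dusp2, Egr1, Egr3, Hspa1b and Id2 fall outside the rule. So do Id3, Ifng, Ikzf4, Il4, Jun, Mki67, Myb, Nab2 and Top2a, and all of these were chosen after their values were seen. Some genes that the rule takes are not reported here.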

Additional observations from a re-analysis of the deposited data

Results flagged for a closer look

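The effect of periphery against thymus differed between OTII and W131AOTII cells, by the edgeR quasi-likelihood test of the difference with Benjamini-Hochberg adjustment, for 35 of the genes named. The values below are the OTII log2 fold change minus the W131AOTII one.

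Some receptors and transcription factors had negative differences. Ccr8 differed by -2.89, Tnfrsf4 by -2.46, Irf4 by -2.36 and Gpr83 by -2.33. Cd5 differed by -1.67, Nr4a1 by -1.61, Egr2 by -1.11 and Cd6 by -1.0. Of these, Ccr8, Irf4, Nr4a1 and Egr2 had negative fold changes in both genotypes, and Tnfrsf4, Gpr83, Cd5 and Cd6 had negative ones in OTII and positive ones in W131AOTII cells. Genes of naive cells and others with negative differences were Dapl1 (-2.21), Igfbp4 (-1.80), Klf2 (-1.34), Samhd1 (-1.17) and Bcl3 (-1.16), each with the larger fold change in W131AOTII cells. The regulatory T cell genes Ctla4 (-1.75) and Ikzf4 (-1.21), and Ncmap (-3.37), Man1c1 (-1.66) and Nrp1 (-1.11) had negative fold changes in OTII and positive ones in W131AOTII cells, as did Gadd45g (-2.79) and Gpr15 (-2.54). Ms4a4c (-2.31) and Tnfrsf25 (-1.52) had positive ones in both. The beta variable segments Trbv1 (-1.80), Trbv3 (-1.57), Trbv2 (-1.47), Trbv13-3 (-1.42) and Trbv19 (-1.39) also had negative differences.

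Positive differences were found for Slc16a5 (1.63), Wnt5b (1.62), Tmie (1.48), Sqor (1.44), Adamts14 (1.33), Ppp3cc (1.31), Art2b (1.28) and Rflnb (0.89), all with a positive fold change in OTII cells. The call of the difference was lost without at least 1 single library for Ctla4, Cd6, Egr2, Dapl1, Bcl3, Igfbp4, Man1c1, Nrp1, Gpr15, Tnfrsf25, the 5 beta segments, Wnt5b, Adamts14, Art2b and Rflnb.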

How the results depend on the processing

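Without 1 library at a time, peripheral against thymic OTII gave 1926 to 2382 genes, 767 to 1037 of them higher and 1159 to 1506 lower; W131AOTII gave 2189 to 2910 (946 to 1310 higher, 1224 to 1633 lower), and the difference of effects 0.146% to 0.831% of the genes tested (4 to 41 positive, 19 to 90 negative). Of the 2785 OTII calls, 67.7% to 80.5% were called again in the same direction without 1 library and 85.0% to 99.4% under the other settings, and no sign changed. Offsets for GC content and gene length gave 1972 higher genes in OTII and 1958 in W131AOTII cells. The difference of effects passed for 1.38% of genes tested with DESeq2 (64 positive, 146 negative), 1.22% without a filter (71 and 294), 0.71% with those offsets (32 and 76), and 7 positive ones with the compared libraries alone; the cause was not tested. The labels do not tie replicate numbers to mice, so the numbers are not taken as pairs. Deviations of same-numbered libraries from their group means had correlations of 0.02, -0.01 and -0.01 in OTII and -0.19, -0.09 and 0.21 in W131AOTII. Such correlations between 2 tissues cannot show whether libraries share animals. With the replicate number as a block, OTII gave 2993 genes, W131AOTII 1487 (594 higher, 893 lower) and the difference 0.15% (3 positive, 19 negative). Of the genes named, Jun, at -1.05 and not called, ran from -1.61 without thymic OTII replicate 1 to 2.25 without thymic OTII replicate 3, a change of sign. Counts of other gene lists moved by over 1.5 times as follows. Offsets for GC content and gene length gave 11 higher and 1 lower calcium and ion channel genes, 8 higher costimulatory and inhibitory genes, 5 higher genes each in the glycolysis, nuclear receptor and Notch and Wnt lists, 4 higher inhibitors of cytokine signalling, 2 higher lineage factors, and 5 purinergic, 3 interferon and 1 IRG or GBP gene lower. Library size alone gave 2 higher genes of receptor restraint, and 5 purinergic, 4 glycolysis and 2 interferon genes lower. Without a filter there were 9 higher calcium and ion channel genes and 2 higher mitochondrially encoded genes, 3 interferon, 5 Notch and Wnt, 1 myeloid and 1 erythroid or platelet gene lower, and 1 higher and 7 lower immediate early genes. A mean CPM of at least 1 left 7 recombination genes and 1 Notch and Wnt gene lower, and limma with voom gave 1 semi-mature and 2 myeloid genes higher and 1 calcium and ion channel gene lower. The compared libraries alone gave 3 interferon genes lower, and 5 GIMAP, 1 chromatin and 1 immediate early gene higher; with the replicate block, 8 calcium and ion channel, 5 GIMAP and 1 immediate early gene were higher, and 4 interferon, 1 IRG or GBP and 2 immediate early genes lower. With 3 libraries a group an exact permutation test of a single value cannot go below 0.1, and at low counts fitted fold changes depend on the prior count.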

Other observations

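Among the 58 genes whose effect differed between OTII and W131AOTII cells, 5 were T cell receptor beta variable segments, chosen for mention after their values were seen. Trbv1 had log2 fold changes of -0.55 in OTII and 1.25 in W131AOTII cells, Trbv2 -0.78 in OTII and 0.69 in W131AOTII, and Trbv3 -0.80 in OTII and 0.77 in W131AOTII. Trbv13-3 had -0.19 in OTII and 1.23 in W131AOTII cells, and Trbv19 -1.10 in OTII and 0.29 in W131AOTII. All 5 had negative values in OTII and positive values in W131AOTII cells, but not every value was called. Trbv1 and Trbv13-3 were not called in OTII cells (adjusted p = 0.175 and 0.597), nor Trbv19 in W131AOTII cells (adjusted p = 0.382). Further genes of this set, also chosen after their values were seen, were Gadd45g, a growth arrest and stress gene, at -0.36 in OTII and 2.42 in W131AOTII cells, and Gpr15, a homing receptor, at -1.66 in OTII and 0.89 in W131AOTII cells. Tnfrsf25, the death receptor DR3, had 0.57 in OTII and 2.09 in W131AOTII cells, and Ms4a4c 0.52 in OTII and 2.83 in W131AOTII cells.

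Of the genes called between peripheral and thymic OTII cells, 60 had no count in any peripheral OTII library and 32 had none in any thymic OTII library. Genes with no count in a group passed the filter on low counts through libraries of other groups. The same counts over all genes tested were not taken, so these counts are not a result about either group.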
